A study of Homo sapiens with 6 samples.

Results

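Glutathione is the main small thiol of the cell. The enzymes described here make it, spend it on peroxides, electrophiles and oxidised protein thiols, and restore it. They are 9 genes, namely glutathione reductase (GSR), the synthesis genes GCLC, GCLM and GSS, the peroxidases GPX1, GPX2 and GPX4, the transferase GSTP1 and the glutaredoxin GLRX. They are represented by every Affymetrix probe set that the platform annotation assigns to exactly 1 of these symbols. That gave 12 probe sets of the 22215 that are not controls, and 9 of the 11963 genes with a probe set of their own. GCLC, GSS and GLRX have 2 probe sets each and the other 6 genes have 1. The genes were chosen by results of the contrast between the lines, chiefly the low GSR intensity in E1, so the differences of all 9 are given as descriptions, and nothing is read from how often any of them passed a threshold.

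The arrays compare 2 human colon cancer cell lines with 3 arrays each, and no treatment or time point is labelled. HCT116 is an established line that is poorly metastatic according to the labels. E1 is labelled as a metastatic line that was derived in vivo, and its cell line field also reads HCT116. The labels do not say whether the arrays of a line came from separate cultures, or whether E1 is a clone, so every SE and p-value covers only array-to-array spread, which could be technical.

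In the glutathione cycle, glutamate-cysteine ligase joins glutamate to cysteine, with GCLC as its catalytic and GCLM as its modifier subunit, and glutathione synthetase, GSS, adds glycine. Peroxidases oxidise glutathione to its disulfide, and GSR uses NADPH to reduce the disulfide back to glutathione. Many genes of this cycle are known targets of the transcription factor NRF2, which binds antioxidant response elements.

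Signal from the 5' end of transcripts was low on E1 arrays 2 and 3. The ratio of 3' to 5' control signal for GAPDH was 0.774 to 0.811 for HCT116 and 0.803 for E1 array 1, but 34.1 and 71.9 on E1 arrays 2 and 3. The difference of E1 array 1 alone from the 3 HCT116 arrays is therefore given for the members and for the other genes named from the contrast. The array medians lay between 48.1 and 66.6. Each marker was read from its brightest probe set. All 5 brightest markers of the colon epithelial list, KRT18, KRT8, KRT19, EPCAM and CDH1, had mean intensities over 100 in both lines. KRT20, VIL1, CDX2, CDH17 and LGALS4 were below 100 in both. KRT8 read 2862, 372 and 103 on E1 arrays 1, 2 and 3, so its E1 mean rests largely on array 1. The dimmer CDH1 probe set 201130_s_at had means of 95.3 in HCT116 and 29.8 in E1. The 10 markers of that list summed to 16855 to 19476 in HCT116 and 11668 to 14669 in E1. The summed signal of the 5 measured leukocyte markers was 96.1 to 177 in HCT116 and 134 to 164 in E1, and that of the 4 endothelial markers 78.5 to 101 and 93.1 to 103. The 6 fibroblast markers summed to 301 to 350 in HCT116 and 227 to 336 in E1, and 0 of their probe sets passed in either direction.

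GCLM, GPX2 and GSTP1 carry an antioxidant response element core close to their annotated start, and these stretches are shown because NRF2 is a known regulator of this cycle and the 3 genes have different roles in it. The motif searched was TGACNNNGC, on both strands, in the 250 bases before and 50 bases after each start in RefSeq promoters of GRCh38.p14. Of the 9 genes, 7 were matched to a promoter, and GSR and GSS were not. The 7 genes have 9 promoters in that set. The motif was found in 1 promoter of each of these 3 genes, and in 13.3% of all 35116 promoters of the same length. The 3 of 7 counts genes and the 13.3% counts promoters, so they are not like for like. Capitals mark the match, and each stretch runs 5′ to 3′ on the strand of its gene.
GCLM, chr1:93909436-93909484, minus strand: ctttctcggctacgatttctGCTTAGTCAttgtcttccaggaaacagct
GPX2, chr14:64942839-64942887, minus strand: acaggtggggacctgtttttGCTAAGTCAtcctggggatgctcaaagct
GSTP1, chr11:67583726-67583774, plus strand: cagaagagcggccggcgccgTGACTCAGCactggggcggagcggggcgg
The matches begin 34, 122 and 66 bases before the starts of GCLM, GPX2 and GSTP1. In GCLM and GPX2 the motif lies on the opposite strand to the gene. The GSTP1 match also overlaps 1 match of the AP-1 motif TGANTCA, and the other two overlap 0. A match is a description of the letters and says nothing of binding.

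Glutathione reductase was the member that differed most. GSR (205770_at) read 923, 771 and 889.9 on the HCT116 arrays and 271, 216 and 180.2 on the E1 arrays. All 3 E1 arrays lay far below all 3 HCT116 arrays, and E1 array 1, with intact 5' control signal, was among them. The HCT116 mean was 861 ± 80.1 (SD, n = 3). The E1 mean was 223 ± 45.9 (SD, n = 3), which is 3.87-fold lower. The difference of log2(intensity + 32), E1 minus HCT116, was -1.82 (SE 0.17) over all arrays and -1.55 for E1 array 1 alone. It was negative under all 17 alternative settings, from -1.96 to -1.54. In RNA from whole cultures, fewer cells with a transcript and less of it per cell cannot be told apart.

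GSR was the 1 of the 12 member probe sets called at an adjusted p under 0.05 in limma across all probe sets, where 171, or 0.77%, were called. Because this contrast chose GSR, nothing is read from that count. Of all 22215 probe sets, 48 (0.216%) were called higher in E1 and 123 (0.554%) lower, and GSR ranked 36 by p-value. Quantile normalization gave 79 higher and 108 lower, and subtraction of the array medians 79 and 127. The latter moved the median difference of all probe sets from -0.02 to 0.13 and put GSR at -1.67. The GSR call itself was kept in 9 of the 17 settings and lost with E1 array 1 alone and when E1 array 2, E1 array 3 or any 1 HCT116 array was left out, among 8 settings.

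**Figure D1:**
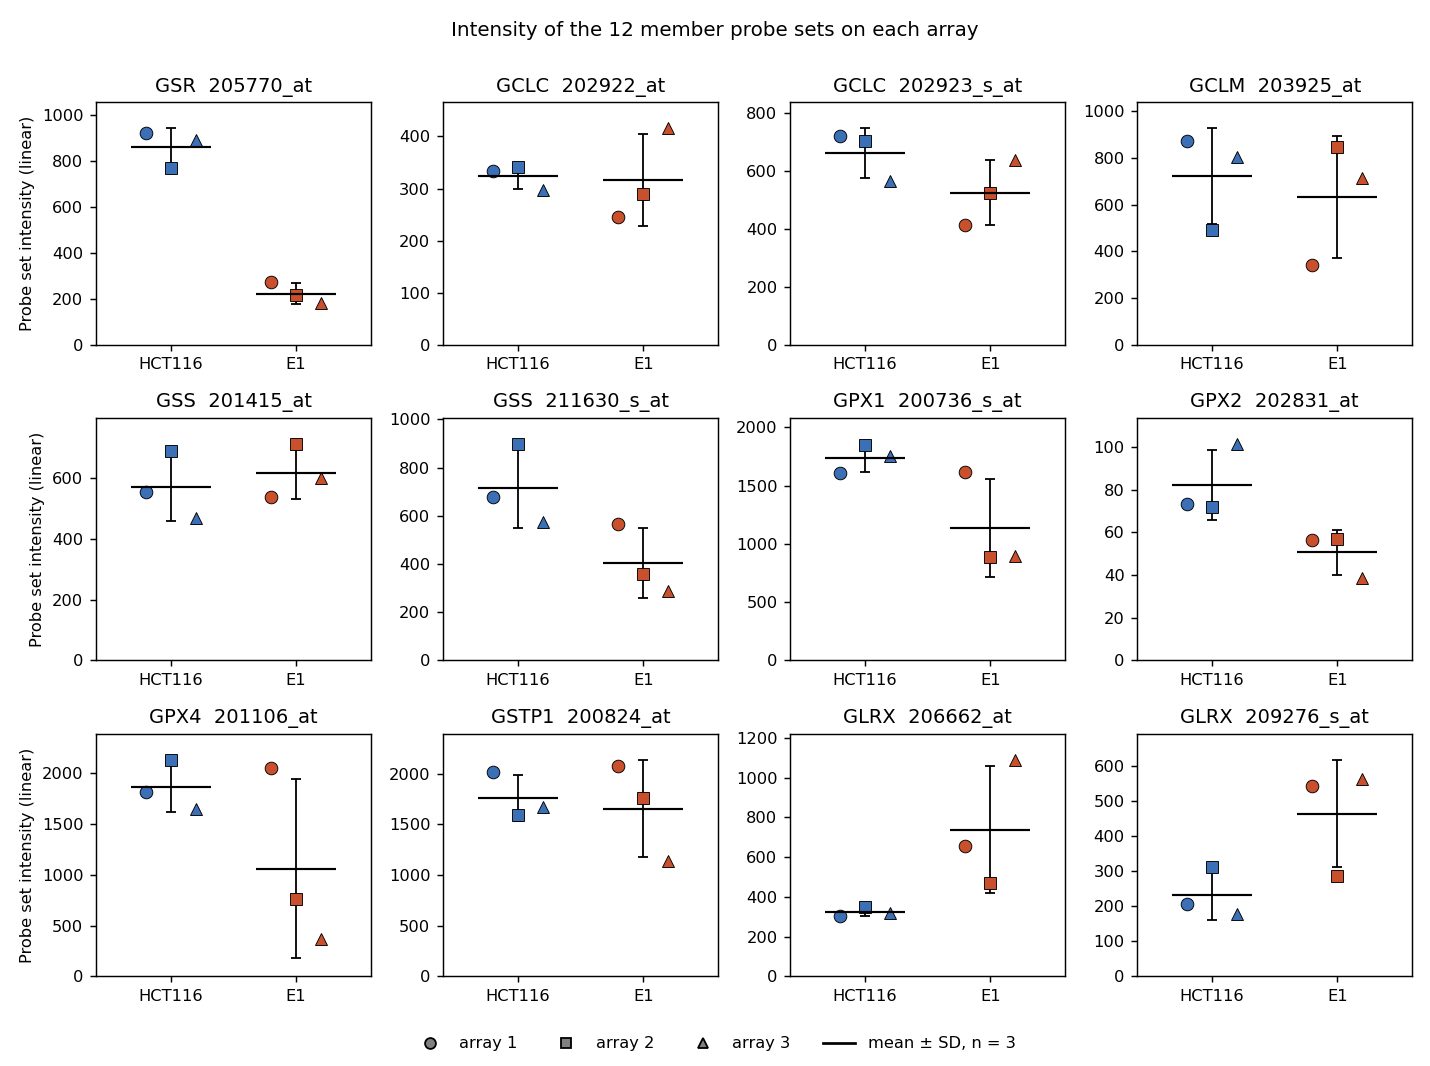
Linear probe set intensity (y axis, starting at 0) of the 12 member probe sets on the 3 HCT116 and 3 E1 arrays, with the line mean ± SD (n = 3) and a symbol for each array number. The GSR arrays of E1 sit between 180.2 and 271, all below the HCT116 arrays, and GPX4 sits at 2052 on E1 array 1 but at 766 and 367 on E1 arrays 2 and 3.

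The synthesis genes lay on both sides of no difference, and none showed the low signal of GSR on every E1 array. The catalytic subunit gene GCLC read 333, 342 and 296 in HCT116 and 246, 289 and 416 in E1 with probe set 202922_at. With 202923_s_at it read 718, 702 and 563 in HCT116 and 413, 521 and 636 in E1. The lines overlapped in both probe sets, and E1 array 1 was the lowest of the 6 arrays in both. The differences were -0.05 (SE 0.20) and -0.33 (SE 0.19) on the log2 scale, and -0.35 and -0.63 with E1 array 1 alone. The first of them was 0.07 after quantile normalization and 0.10 with array medians subtracted.

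The modifier subunit gene GCLM (203925_at) read 873, 489.8 and 804 in HCT116 and 342, 845 and 714 in E1. The lines overlapped widely. HCT116 array 2 and E1 array 1 were the low arrays, and each lay under the other 2 of its line. Its difference was -0.23 (SE 0.38) over all arrays, -0.97 for E1 array 1 alone and 0.14 without E1 array 1, so the direction depended on that array.

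The 2 probe sets of glutathione synthetase, GSS, gave unlike values. With 201415_at GSS read 553, 689 and 469.7 in HCT116 and 538, 711 and 600.2 in E1, and the lines overlapped. With 211630_s_at it read 676, 897 and 573 in HCT116 and 565, 359.8 and 288 in E1. In the second probe set the lines did not overlap, but E1 array 1 lay just under the lowest HCT116 array and E1 arrays 2 and 3 far under it. The differences were 0.11 (SE 0.18) for the first and -0.80 (SE 0.28) for the second. With E1 array 1 alone they were -0.06 and -0.30. With the GAPDH 3' to 5' ratio as a covariate the second stood at -0.29. That ratio was high only on E1 arrays 2 and 3, so the covariate fit leans on E1 array 1.

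Among the peroxidases, which reduce hydrogen peroxide and organic peroxides, GPX4 and GPX1 were low on E1 arrays 2 and 3 only. GPX4 (201106_at), the selenoenzyme that reduces lipid peroxides in membranes and restrains ferroptosis, read 1812, 2132 and 1649.8 in HCT116 and 2052, 766 and 367 in E1. E1 array 1 lay inside the HCT116 range and the other E1 arrays lay far below it. The means of 1865 ± 245 and 1062 ± 881 (SD, n = 3 each) give a difference of -1.11 (SE 0.57). With E1 array 1 alone the difference was 0.14, of the opposite sign.

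GPX1 (200736_s_at), the widely expressed cytosolic and mitochondrial peroxidase, read 1607, 1845 and 1755 in HCT116 and 1618, 887 and 899 in E1. Again E1 array 1 was inside the HCT116 range and E1 arrays 2 and 3 were below it. The difference was -0.65 (SE 0.25) over all arrays and -0.10 for E1 array 1 alone. Without E1 array 1 it was -0.93 for GPX1 and -1.74 for GPX4. With the GAPDH 3' to 5' ratio as a covariate GPX1 stood at -0.11 and GPX4 at 0.21. That ratio was high only on E1 arrays 2 and 3. The covariate fit therefore leans on E1 array 1, is no separate check, and the cause was not tested.

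GPX2 (202831_at), the gastrointestinal peroxidase of crypt epithelium, was dim. It read 73.4, 71.8 and 101 in HCT116 and 56.6, 56.9 and 38.5 in E1. The lines did not overlap, and E1 array 1 was close to E1 array 2. The difference was -0.46 (SE 0.16) over all arrays and -0.36 for E1 array 1 alone, and the offset of 32 understates it at this signal. With an offset of 1 it was -0.69.

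The conjugating transferase gene GSTP1 (200824_at), whose product joins glutathione to electrophiles, read 2014.5, 1591 and 1672 in HCT116 and 2079.8, 1757 and 1135 in E1. The lines overlapped, with E1 array 1 the highest of all 6 arrays and E1 array 3 the lowest. The difference was -0.12 (SE 0.24) over all arrays and 0.24 for E1 array 1 alone. It was 0.03 with array medians subtracted, so no direction is given for GSTP1.

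GLRX was the 1 member gene with a higher mean in E1 in all its probe sets. Its product, a glutaredoxin, uses glutathione to release protein thiols that are bound to glutathione, which leaves glutathione disulfide for GSR to reduce. With 206662_at GLRX read 304, 347 and 320.4 in HCT116 and 657, 469 and 1089 in E1. All 3 E1 arrays lay above all HCT116 arrays, and the E1 values spread widely. The difference was 1.04 (SE 0.29) over all arrays and 0.95 for E1 array 1 alone.

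The second GLRX probe set, 209276_s_at, read 205, 311 and 179 in HCT116 and 543, 287 and 562 in E1. Here E1 array 2 fell inside the HCT116 range and the other 2 E1 arrays lay above it. The difference was 0.89 (SE 0.31) over all arrays and 1.16 for E1 array 1 alone. Both GLRX probe sets kept a positive difference in every setting tried, from 0.73 to 1.31 and from 0.73 to 1.18.

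Over the 12 member probe sets, 4 had lines that did not overlap, against 20.5% of all probe sets. These were GSR, GPX2 and 211630_s_at of GSS, lower in E1, and 206662_at of GLRX, higher in E1. Of all probe sets 13% did not overlap and were lower and 7.45% did not overlap and were higher. E1 array 1 lay inside the HCT116 range for 3 of the 12, below it for 6 and above it for 3, and inside it for 41.8% of all probe sets. The median difference of the 12 was -0.28, beside -0.02 for all probe sets. These shares rest on the contrast that chose the genes and are descriptions.

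**Figure D2:**
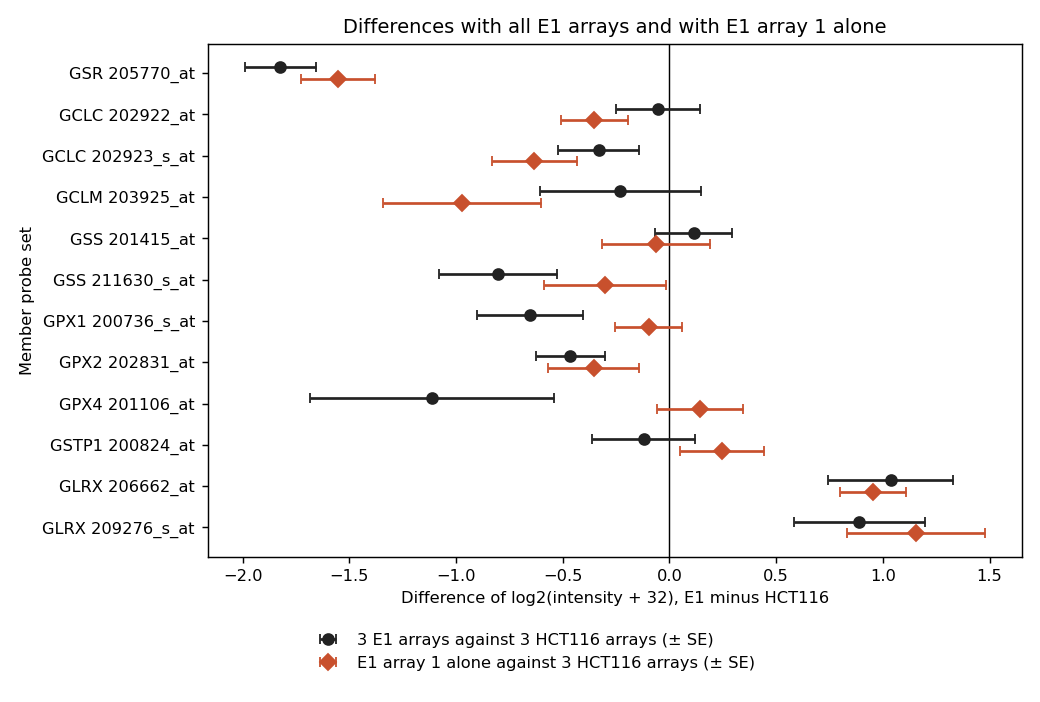
Difference of log2(intensity + 32), E1 minus HCT116 (x axis), for the 12 member probe sets (y axis), with all E1 arrays (circles) and with E1 array 1 alone (diamonds), each ± SE. The SE of the diamonds holds no spread between E1 arrays and is not comparable with that of the circles. GSR stays at -1.82 and -1.55 and both GLRX probe sets stay positive, whereas GPX4 moves from -1.11 to 0.14.

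Across the 6 arrays the members did not follow 1 common pattern. Pearson's r of the log2 values with GSR, over 6 arrays that form 2 lines, was 0.87 for GPX2, 0.83 for 211630_s_at of GSS, 0.82 for GPX1 and 0.73 for GPX4. With the GLRX probe sets it was -0.88 and -0.79. GPX1 and GPX4 correlated at 0.93, and both GCLC probe sets at 0.79. These values describe arrays that share lines and 3' to 5' ratios. The genes whose pattern over the 6 arrays was most like GSR were DCAF7, ANKRD40, FSCN1, ARHGDIA and TSPAN5, with r from 0.9961 to 0.9987. Like GSR they were low on all E1 arrays, which follows from their choice by likeness to GSR over these arrays and is no separate result. Their differences ran from -2.69 for ARHGDIA to -1.29 for ANKRD40. With E1 array 1 alone they ran from -2.46 for FSCN1 to -1.06 for ANKRD40.

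None of the genes next to GSR was called with the settings used throughout. GSR lies on chromosome 8, and the other members lie on 8 further chromosomes. The 5 measured genes on each side of it in RefSeq gene order had 15 probe sets, of which 0 were called in limma, and 2 reached an unadjusted p under 0.05. Both are RBPMS probe sets and were lower, and 11.7% of all probe sets were lower at that unadjusted threshold. The median difference of the 15 was 0.01. Of the genes directly on either side, GTF2E2, a subunit of the general transcription factor TFIIE, stood at -0.05 (SE 0.17, adjusted p = 0.949) and UBXN8 at -0.34 (SE 0.20, adjusted p = 0.451). With E1 array 1 alone they stood at -0.29 and -0.47.

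The lowest values among the neighbours were those of RBPMS, an RNA-binding protein gene with 4 probe sets. Its probe set 209488_s_at read 173, 149 and 130.2 in HCT116 and 25.7, 49.1 and 6.996 in E1, a difference of -1.68 (SE 0.28, adjusted p = 0.0651), and of -1.66 with E1 array 1 alone. All E1 arrays lay below all HCT116 arrays. This probe set was called in 3 alternative settings. They were the one with the dimmest 40% left out, where 2.33% of the probe sets tested were called, the one with trended and robust variances, with 1.04%, and the one without E1 array 1, with 10.6%. Its probe set 209487_at stood at -0.77 (SE 0.21, adjusted p = 0.174), or -0.82 with E1 array 1 alone. The 2 dim ones stood at -0.16 and -0.12, or 0.04 and -0.15 with E1 array 1 alone. Farther out, the helicase gene WRN stood at 0.32 (SE 0.21) and the phosphatase subunit gene PPP2CB at 0.01 in both probe sets. With E1 array 1 alone WRN stood at -0.03 and PPP2CB at -0.06 and -0.31.

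**Figure D3:**
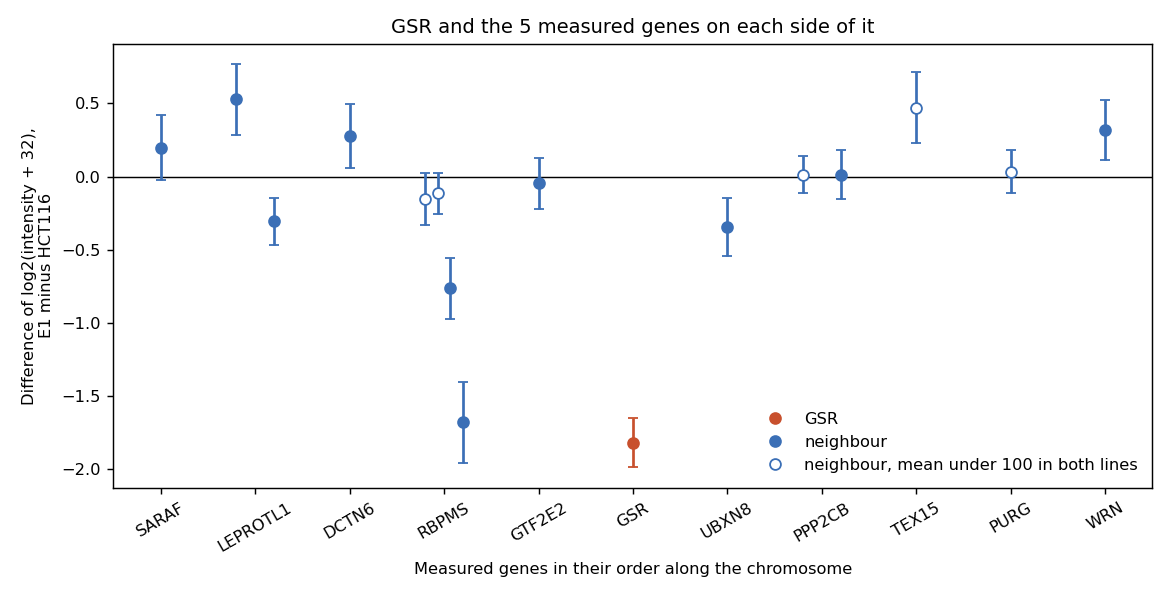
Difference of log2(intensity + 32), E1 minus HCT116 (y axis), ± SE, for GSR and each probe set of the 5 measured genes on either side, in their order along the chromosome (x axis). Open points have a mean intensity under 100 in both lines. GSR at -1.82 and 209488_s_at of RBPMS at -1.68 are the low points, and GTF2E2 between them is at -0.05.

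The wider glutathione and redox genes were read from 9 lists that hold none of the 9 members. Of 106 listed genes, 88 had a probe set of their own, 136 probe sets in all. In limma 0 of the 136 were called, against 0.77% of all probe sets. At an unadjusted p under 0.05 there were 9 higher and 17 lower. This is 19.1% of the 136, beside 16.5% of all probe sets (4.75% higher and 11.7% lower), and the lines did not overlap for 20.6%, beside 20.5%. By list, the share at an unadjusted p under 0.05 ran from 0% to 40%. The median difference of the 136 was 0.01. With E1 array 1 left out, 14 of them (10.3%) were called, 3 higher and 11 lower. In the same setting 10.6% of all probe sets were called, 1.8% higher and 8.82% lower, so the share of the lists was near the background. With an offset of 100 there was 1, TXN2, where 0.5% of all probe sets were called. Where a gene named from these lists has several probe sets, each is given. In 3 of the 26 at an unadjusted p under 0.05 E1 array 1 lay inside the HCT116 range.

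Genes of cysteine supply and the gamma-glutamyl cycle, which feed and recycle the amino acids of glutathione, gave 0 called of 15 probe sets for 11 genes, with 0 at an unadjusted p under 0.05. SLC3A2, the heavy chain of the cystine transporter, read 506, 1401 and 565 in HCT116 and 647, 214 and 151 in E1. Its lines overlapped, and its difference was -1.30 (SE 0.59, adjusted p = 0.345), but -0.19 with E1 array 1 alone. SLC1A1, a glutamate and cysteine carrier, stood at 0.46 (SE 0.24, adjusted p = 0.4105) with 213664_at and at 0.39 with E1 array 1 alone. Its dimmer probe set 206396_at had the opposite sign, at -0.19 (SE 0.12) and -0.24, so no direction is given for it.

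The other glutathione peroxidases and the other transferases were mostly dim. Of 5 peroxidase probe sets 0 were called. The secreted peroxidase gene GPX3 stood at -0.35 (SE 0.14, adjusted p = 0.292) with 201348_at, or -0.43 with E1 array 1 alone. With 214091_s_at it stood at 0.03 (SE 0.15), or 0.07 with E1 array 1 alone. GPX5 stood at 0.37 (SE 0.11, adjusted p = 0.214) with 208028_s_at, also 0.37 with E1 array 1 alone, from means of only 3.92 and 14.4. With 214648_at GPX5 stood at 0.24 (SE 0.18), or 0.09 with E1 array 1 alone. Of 19 transferase probe sets for 16 genes 0 were called. A positive difference was seen in 14, where the median difference of all probe sets was -0.02. An unadjusted p under 0.05 was reached by 3, all higher, which is 15.8% of the 19. Of all probe sets 16.5% reached it, 4.75% higher and 11.7% lower. Among the transferases GSTA4, which conjugates lipid peroxidation products, read 70.5, 67.9 and 88.3 in HCT116 and 129, 99.5 and 208 in E1. Its E1 arrays all lay above HCT116, and its difference was 0.68 (SE 0.24, adjusted p = 0.2504), or 0.58 with E1 array 1 alone. GSTM2 stood at 0.44 (SE 0.15, adjusted p = 0.237), or 0.51 with E1 array 1 alone, with a probe set of the _x_at kind, whose probes may also match related genes.

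In glutathione-linked detoxification and export, 0 of 16 probe sets for 10 genes were called and 3 reached an unadjusted p under 0.05, all lower. This is 18.8% of the 16, beside 16.5% of all probe sets (11.7% lower). ABCC1, which exports glutathione conjugates, read 453, 313 and 317 in HCT116 and 294, 101 and 96.0 in E1 with 202805_s_at. E1 array 1 lay just under the HCT116 arrays and the other E1 arrays far under them. Its difference was -1.13 (SE 0.39, adjusted p = 0.247) over all arrays and -0.25 for E1 array 1 alone. Its brighter probe set 202804_at had the opposite sign, with means of 550.4 in HCT116 and 752 in E1. That probe set stood at 0.40 (SE 0.23, adjusted p = 0.449), or 0.04 with E1 array 1 alone, so no direction is given for ABCC1. PTGES, a glutathione-dependent prostaglandin synthase, stood at -0.71 (SE 0.23, adjusted p = 0.228) with 207388_s_at, and at -0.25 with E1 array 1 alone. With 210367_s_at PTGES stood at -0.45 (SE 0.17) and -0.28.

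The thioredoxin system is the other main thiol reduction system of the cell. Of 27 probe sets for 15 genes of the thioredoxins, other glutaredoxins and peroxiredoxins, 0 were called, and an unadjusted p under 0.05 was reached by 4 in the higher and 6 in the lower direction. This is 37% of the 27, beside 16.5% of all probe sets. The lines did not overlap for 37%, beside 20.5%, and the excess was not tested. TXN2, the mitochondrial thioredoxin, read 430.02, 393 and 443 in HCT116 and 249.9, 278 and 256 in E1 with 209077_at. Its lines stood well apart, with E1 array 1 the lowest. Its difference was -0.63 (SE 0.11, adjusted p = 0.0805) and -0.69 with E1 array 1 alone. It was called at -0.53 with an offset of 100 (adjusted p = 0.0497) and at -0.60 without E1 array 1 (adjusted p = 0.0402). With 209078_s_at TXN2 stood at -1.59 (SE 0.45, adjusted p = 0.184), and at -0.52 with E1 array 1 alone.

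GLRX2, a mitochondrial and nuclear glutaredoxin, read 811, 669 and 648 in HCT116 and 317, 533 and 368 in E1. All E1 arrays lay below HCT116, the opposite side from GLRX. Its difference was -0.78 (SE 0.21, adjusted p = 0.172), and -1.08 with E1 array 1 alone.

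NADPH supply feeds GSR with its electrons. Of 20 probe sets for 12 genes, 0 were called and 3 reached an unadjusted p under 0.05, all lower. This is 15% of the 20, beside 16.5% of all probe sets (11.7% lower). In 2 of the 3, E1 array 1 lay inside the HCT116 range. The pentose phosphate enzyme gene PGLS read 310.0, 452 and 248 in HCT116 and 259.8, 44.2 and 45.9 in E1 with 218388_at. E1 array 1 lay inside the HCT116 range, and the difference went from -1.58 (SE 0.56, adjusted p = 0.252) over all arrays to -0.30 with E1 array 1 alone. With 218387_s_at PGLS stood at -0.68 (SE 0.34) and -0.05. Malic enzyme, ME1, read 396, 493 and 502 in HCT116 and 196, 328 and 354 in E1 with 204058_at. All E1 arrays lay below HCT116 there, with E1 array 1 the lowest, and the difference was -0.64 (SE 0.23, adjusted p = 0.2603), or -1.11 with E1 array 1 alone. In its brighter probe set 204059_s_at the lines overlapped, with 532, 823 and 592 in HCT116 and 320.2, 541 and 664 in E1. That probe set of ME1 stood at -0.37 (SE 0.29, adjusted p = 0.613) over all arrays, or -0.93 for E1 array 1 alone. The dim 211204_at stood at 0.04 and -0.18.

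Among NRF2 regulators and targets 0 of 20 probe sets for 13 genes were called, and 4 reached an unadjusted p under 0.05, 3 of them lower. This is 20% of the list, beside 16.5% of all probe sets (11.7% lower). KEAP1, the adaptor that marks NRF2 for degradation, read 703, 408 and 562 in HCT116 and 324, 323 and 226 in E1. All E1 arrays lay below HCT116, and its difference was -0.85 (SE 0.23, adjusted p = 0.178), or -0.70 with E1 array 1 alone. Ferritin light chain, FTL, stood at -0.47 (SE 0.12, adjusted p = 0.1655) with 212788_x_at, and at -0.30 with E1 array 1 alone. With 213187_x_at FTL stood at -2.88 (SE 1.01, adjusted p = 0.2499), and at -0.68 with E1 array 1 alone.

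The superoxide and peroxide removal list had 0 of 5 probe sets called and 0 at an unadjusted p under 0.05. The superoxide dismutase gene SOD1 stood at 0.34 (SE 0.17, adjusted p = 0.394) and SOD3 at -0.12 (SE 0.15, adjusted p = 0.785). With E1 array 1 alone both stood at 0.05. Selenoprotein synthesis, which GPX1, GPX2 and GPX4 need for their selenocysteine, had 0 of 9 probe sets called. An unadjusted p under 0.05 was reached by 1, or 11.1%, beside 16.5% of all probe sets. SCLY, the selenocysteine lyase, had a negative difference in all 3 of its probe sets. The brightest, 221575_at, with means of 251 in HCT116 and 199 in E1, stood at -0.29 (SE 0.16, adjusted p = 0.448), and at -0.10 with E1 array 1 alone. The 2 dim probe sets of SCLY stood at -0.50 (SE 0.19, adjusted p = 0.278) and -0.54 (SE 0.27, adjusted p = 0.389), and at -0.42 and -0.18 with E1 array 1 alone.

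**Figure D4:**
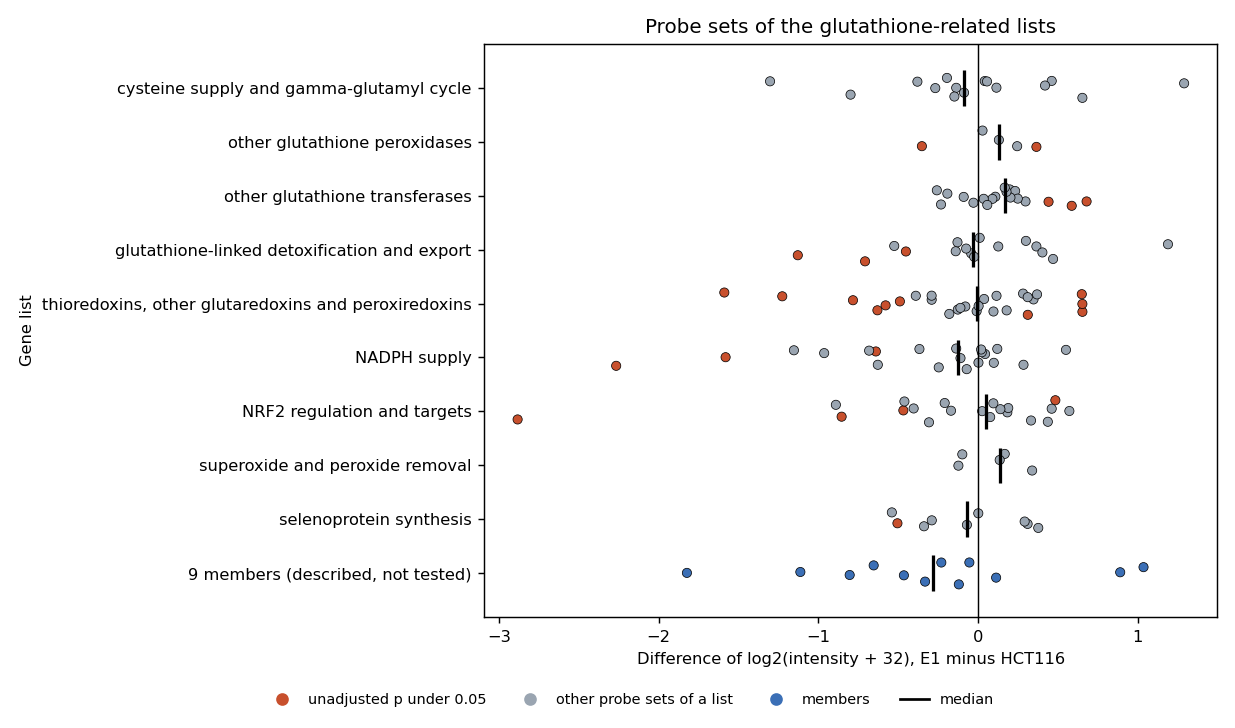
Difference of log2(intensity + 32), E1 minus HCT116 (x axis), for each probe set of the 9 glutathione-related lists and of the 9 members (y axis, 1 row each), with the median as a bar and probe sets at an unadjusted p under 0.05 in orange. The list medians lie between -0.12 and 0.17, the member median at -0.28, and 0 of the 136 list probe sets were called.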

How the data were processed

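The values deposited by the authors are linear intensities of 22283 Affymetrix probe sets on 6 arrays. Per the labels' protocols RNA came from a Trizol extraction and carried a biotin label. How intensities were summarized, background-corrected or scaled was not given in the sources used here. The 68 control probe sets were left out, values were transformed as log2(intensity + 32), and E1 was compared with HCT116 by limma 3.58.1 (R 4.3.3) over the other 22215 probe sets, with Benjamini-Hochberg adjustment over all of them. All tests are two-sided. Of these probe sets 19065 carried 1 symbol, 1043 several and 2107 were not listed with one. Symbols were checked against a RefSeq table of GRCh38.p14, which changed 0. The table has 0 columns outside the 6 arrays.

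The members, lists and settings were chosen with earlier results of these data known. Named genes are the members, the 2 probe sets of each list with the smallest p (the other probe sets of these genes were added after their values were seen), the 5 measured genes on each side of GSR, the 5 named genes most correlated with GSR among probe sets above the median, and marker genes. Other genes are said to be chosen after their values were seen. Alternatives were 2 normalizations, offsets of 1 and 100, a filter on the dimmest 40%, 1 value per gene by the brightest probe set or the mean, trended and robust variances, a replicate block, the GAPDH ratio as covariate, a threshold of 0.01, E1 array 1 alone and leaving out each array. On 10 simulated data sets of 22215 probe sets the fit recovered 30.7% of probe sets changed by 1 on the log2 scale. It recovered 76.6% of those changed by 2, and 4.77% of its calls were false. These shares describe the simulated data only. Whether they hold for the measured arrays, where the GAPDH ratio was high on some E1 arrays only, was not tested. The number of arrays limits the precision.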

Additional observations from a re-analysis of the deposited data

How the results depend on the processing

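The GSR difference stayed negative in all 17 settings. It was called in 9 of them and was no longer called with E1 array 1 alone (-1.55), with the GAPDH ratio as covariate (-1.54) or with the replicate number as a block (-1.82). Leaving out 1 array at a time gave -1.96 to -1.70, and the call was kept only without E1 array 1. Deviations of same-numbered arrays correlated at -0.04, -0.31 and -0.09. The block fit, which leaves few residual degrees of freedom, called 0 probe sets. Whether the replicate numbers pair the arrays cannot be told from these values. The count of 171 called probe sets was 111 with an offset of 100, 310 with the dimmest 40% left out, 50 with 1 probe set per gene, 47 with probe sets averaged per gene, 6 with the GAPDH covariate, 0 with E1 array 1 alone and 5 at a threshold of 0.01. Leaving out 1 array gave 5 to 2358, the last without E1 array 1. The count of 0 called list probe sets was 1 with an offset of 100, and 0 to 14 when 1 array was left out. For the other members the difference changed sign for GCLC 202922_at with quantile normalization (0.068) and array medians (0.095), for GSS 201415_at with the mean of both probe sets (-0.35), the covariate (-0.040) and E1 array 1 alone (-0.063), for GPX4 with the covariate (0.21) and E1 array 1 alone (0.14), and for GSTP1 with array medians (0.029), the covariate (0.29) and E1 array 1 alone (0.24). With 1 array left out GCLC 202922_at ran from -0.25 to 0.095, GCLM from -0.48 to 0.14, GSS 201415_at from -0.011 to 0.25 and GSTP1 from -0.30 to 0.13. Without E1 array 1, where 10.6% of all probe sets were called (8.82% lower), the calls included GPX1, GPX4 and GSS 211630_s_at, all lower, and nothing is read from them. The causes were not tested. Signals near or below the offset, such as GPX2, GPX3 and GPX5, have changes that the offset understates.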

Other observations

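The genes of cystine import and glutathione breakdown differed more between arrays of 1 line than between the lines. They were chosen after their values were seen, and 0 of their probe sets were called between the lines in limma, with 0 at an unadjusted p under 0.05. CHAC1, which degrades glutathione, read 60.5, 1439 and 94.3 on the HCT116 arrays and 213, 56.2 and 119.6 on the E1 arrays. The CHAC1 difference was -0.80 (SE 1.07), or -0.08 with E1 array 1 alone. SLC7A11, the light chain of the cystine transporter, read 65.9, 754 and 96.7 in HCT116 and 501, 255 and 916 in E1 with 209921_at. Its difference was 1.29 (SE 0.86) with that probe set, 0.65 (SE 0.73) with 217678_at and -0.27 (SE 0.34) with 207528_s_at. With E1 array 1 alone these stood at 1.31, 0.80 and -0.11. No direction is therefore given for SLC7A11. HCT116 array 2 stood above the other HCT116 arrays in both genes, and also in SLC3A2 (506, 1401 and 565). The same held for CTH, the cystathionine lyase, at 92.1, 250.1 and 91.1 with 217127_at and 74.2, 143 and 57.4 with 206085_s_at. The CTH differences were -0.09 (SE 0.48) and 0.06 (SE 0.32), or -0.51 and -0.04 with E1 array 1 alone. GCLM was lowest of the HCT116 arrays on array 2, at 489.8.

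Also chosen after its values were seen, NQO1, a quinone reductase and NRF2 target, was higher on E1 array 3 than on the other E1 arrays in all 3 of its probe sets. With 201468_s_at it read 1137, 1106 and 2321 in E1 and 1094, 1067 and 938 in HCT116, with a difference of 0.46 (SE 0.30, adjusted p = 0.506 in limma), or 0.14 with E1 array 1 alone. With 210519_s_at NQO1 stood at 0.18 (SE 0.21) and with 201467_s_at at 0.19 (SE 0.27), or 0.02 in both with E1 array 1 alone. GLRX 206662_at was also highest on E1 array 3, at 1089. PRDX6, chosen in the same way, a peroxiredoxin that uses glutathione, read 1563, 1268 and 1521 in HCT116 and 1678, 2632 and 2699 in E1 with 200845_s_at, so that all E1 arrays lay above HCT116. Its difference was 0.65 (SE 0.22, adjusted p = 0.235), 0.21 with E1 array 1 alone and 0.87 without E1 array 1. With 200844_s_at PRDX6 stood at 0.35 (SE 0.17, adjusted p = 0.382), or 0.05 with E1 array 1 alone, and the lines overlapped.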
